A study of Mus musculus with 20 samples.

Results

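The genes described here are 39 type I interferon stimulated genes, read in RNA of CNS-associated macrophages of the dura mater (dCAMs). The genes were taken by symbol from a fixed list of names. The rule uses no measured value, but the list was drawn up with earlier results of these data known. All 39 symbols were found in the deposited table of 33243 genes, and all 39 passed the filter on low counts that left 16632 genes for testing. Of these, 36 reached a mean log2 CPM of 4, where CPM stands for counts per 1000000 in a library whose total was scaled by TMM, and the 3 with lower means are Ifit3b, Mx2 and Herc6. None of the 39 was absent from the data, although 13 had 3 counts or fewer in at least 1 library of the tdT- CTL group.

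Type I interferons are cytokines that cells release when they sense microbial products. They bind a receptor built from IFNAR1 and IFNAR2, and the kinases behind it activate transcription factors, with STAT2 and IRF9 among them, that bind the interferon stimulated response element (ISRE) in front of their target genes. The targets hold viruses and bacteria in check by binding foreign RNA, degrading RNA, blocking membrane fusion or tagging proteins, and some of them, such as IRF7, feed back on interferon production. Lipopolysaccharide (LPS), a part of the bacterial envelope, reaches the same genes through TLR4 and IRF3.

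All mice were Ccr2creERT2/+ R26tdT/tdT and all had been gavaged with BLZ945 (200 mg per kg, 7 days), an inhibitor of CSF1R that depletes macrophages, so that no group without depletion was compared. They were injected with tamoxifen (2 mg a day) together with the final gavage and 2 and 4 days after it. Tamoxifen switches on tdTomato (tdT) in cells that use the Ccr2 promoter at that time. At 8 weeks after the depletion, 5 mice were given LPS at 2.5 mg per kg and 5 were given PBS (CTL), and the cranial dura was taken 12 h later. Each of the 10 mice gave 2 libraries of CD45int CD11b+ CD206int-high cells, 1 of the tdT+ and 1 of the tdT- gate. The labels give no age. Values are listed below in the order of mice 174, 175, 177, 178 and 179 for CTL and of mice 54, 56, 59, 60 and 61 for LPS, and the titles start with F for 174, 175, 179, 54 and 56 and with M for the others.

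CTL libraries held 6017650 to 12208203 counts and LPS libraries 12073566 to 18925908. The tdT- CTL libraries stood apart, since only 6671 to 9365 genes reached 10 counts in them, against 10024 or more in the other 15 libraries. Of the 14 border macrophage markers, none was at or under 3 counts in all libraries of any group, and their summed level was 15019 to 28774 CPM in tdT- CTL, 12046 to 15952 CPM in tdT- LPS, 30897 to 35671 CPM in tdT+ CTL and 14118 to 20623 CPM in tdT+ LPS libraries. After LPS 6 of them were called lower and 2 higher in tdT- dCAMs, and 5 lower and 1 higher in tdT+ dCAMs. T and NK cell markers summed to at most 24.8 CPM, endothelial markers to at most 64.7 CPM and mast cell markers to at most 131 CPM in any library. The 8 monocyte markers summed to 1708 to 2520 CPM (median 2126) in tdT- CTL and 1975 to 4344 CPM (median 3502) in tdT+ CTL libraries. After LPS they summed to 1982 to 3762 CPM in tdT- and 2450 to 3885 CPM in tdT+ libraries. Of these 8 markers, 4 were called lower and 1 higher in tdT+ than in tdT- CTL libraries. Chil3 and Vcan were at or under 3 counts in every tdT+ CTL library. LPS raised 3 and lowered 1 of the 8 monocyte markers in tdT+ and raised 1 and lowered 1 in tdT- dCAMs. In the difference of LPS effects 2 were called. Fibroblast markers ran from 10.9 to 3993 CPM in tdT- CTL libraries and from 56.7 to 336 CPM in the other groups. Neutrophil markers summed to 164 to 688 CPM in CTL and 467 to 1173 CPM in LPS libraries, with Ly6g at or under 3 counts in all libraries of 3 groups. Dendritic cell markers reached 618 to 3329 CPM in tdT- CTL libraries against 51.2 to 77.1 CPM in tdT+ CTL libraries, B cell markers fell from 608 to 1334 CPM in CTL to 13.2 to 40.7 CPM in LPS libraries (in CTL mostly Ighm), and plasmacytoid dendritic cell markers from 140.1 to 557 CPM to 65.4 to 106 CPM. The part of these cells in the results was not tested, and in bulk libraries fewer cells of a type and less RNA per cell cannot be told apart.

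Promoters show what the genes have in common beyond their names. Windows of 300 bases around the start (250 before, 50 after) were matched for 28 of the 39 genes in RefSeq (GRCm38.p6), with 33 windows in all. A gene was counted for a motif if any of its windows held it, while the background shares below count windows. The core of the ISRE, GAAANNGAA on either strand, occurred in 17 of the 28 (60.7%), against 8.56% of 32851 windows of the same length. The core of the GAS element bound by STAT dimers, TTCNNNGAA, occurred in 7 of 28 (25.0%) against 8.30%, and an NF-kB type motif, GGANTTTCC, in 1 of 28 (3.57%), Isg15, against 1.25%. Matches of the ISRE core and of the GAS core overlapped in Bst2 and Ifitm3. The stretches below, upstream of the start, are shown because they carry ISRE cores, repeated in all but Rsad2, in genes that the LPS results turn on or in close relatives of them. Capitals mark ISRE core matches, and the strand is that of the gene.

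Isg15 (chr4:156200864-156200908, minus): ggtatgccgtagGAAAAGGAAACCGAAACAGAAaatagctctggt
Ifit1 (chr19:34640768-34640825, plus): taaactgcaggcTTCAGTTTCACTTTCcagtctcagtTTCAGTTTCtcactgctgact
Rsad2 (chr12:26456551-26456583, minus): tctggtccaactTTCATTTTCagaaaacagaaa
Oas1a (chr5:120907526-120907557, minus): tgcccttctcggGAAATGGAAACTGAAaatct
Bst2 (chr8:71537576-71537614, minus): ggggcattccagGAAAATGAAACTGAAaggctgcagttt
Oas3 (chr5:120777708-120777746, minus): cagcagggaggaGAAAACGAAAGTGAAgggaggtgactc
Ifit3 (chr19:34583362-34583447, plus): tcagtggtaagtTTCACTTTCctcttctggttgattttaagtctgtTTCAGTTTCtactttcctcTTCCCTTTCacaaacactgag
Ifit3b (chr19:34607758-34607843, plus): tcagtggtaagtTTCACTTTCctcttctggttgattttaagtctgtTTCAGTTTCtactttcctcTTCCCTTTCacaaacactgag

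In Isg15, Oas1a, Bst2 and Oas3 neighbouring matches began 6 bases apart, so that the cores overlap in a run. In Ifit1, Ifit3 and Ifit3b the last 2 matches began 19 bases apart. The Ifit3 and Ifit3b stretches were identical over 86 of 86 bases. A match is a description of the letters and not a bound site. ISRE cores were present in 4 of the 6 matched genes called higher after LPS in both populations. They were present in 1 of 3 called in tdT- alone, in 4 of 6 called in tdT+ alone and in 8 of 13 called in neither. A call in 1 population alone does not mean that the gene was unchanged in the other.

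The question of the first pair of comparisons is how tdT+ and tdT- dCAMs respond to a systemic endotoxin challenge. Together the 39 genes took 0.395 to 0.847% of all counts in tdT- CTL libraries and 0.329 to 0.671% in tdT+ CTL libraries. After LPS the share was 0.984 to 1.57% in tdT- and 0.997 to 1.63% in tdT+ libraries. Their summed level rose from 5245 ± 1967 to 13094 ± 2736 CPM in tdT- dCAMs and from 4077 ± 1396 to 13523 ± 2808 CPM in tdT+ dCAMs (SD, n = 5 libraries each), and no LPS library lay below a CTL library. Irf7 and Ifitm3 alone held 14.8 to 23.7% of the summed CPM in CTL libraries and 31.9 to 41.0% in LPS libraries. Without this pair, the sum of the other 37 genes went from 4198 ± 1468 to 8380 ± 2044 CPM in tdT- and from 3268 ± 979 to 8563 ± 2198 CPM in tdT+ dCAMs.

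**Figure D1:**
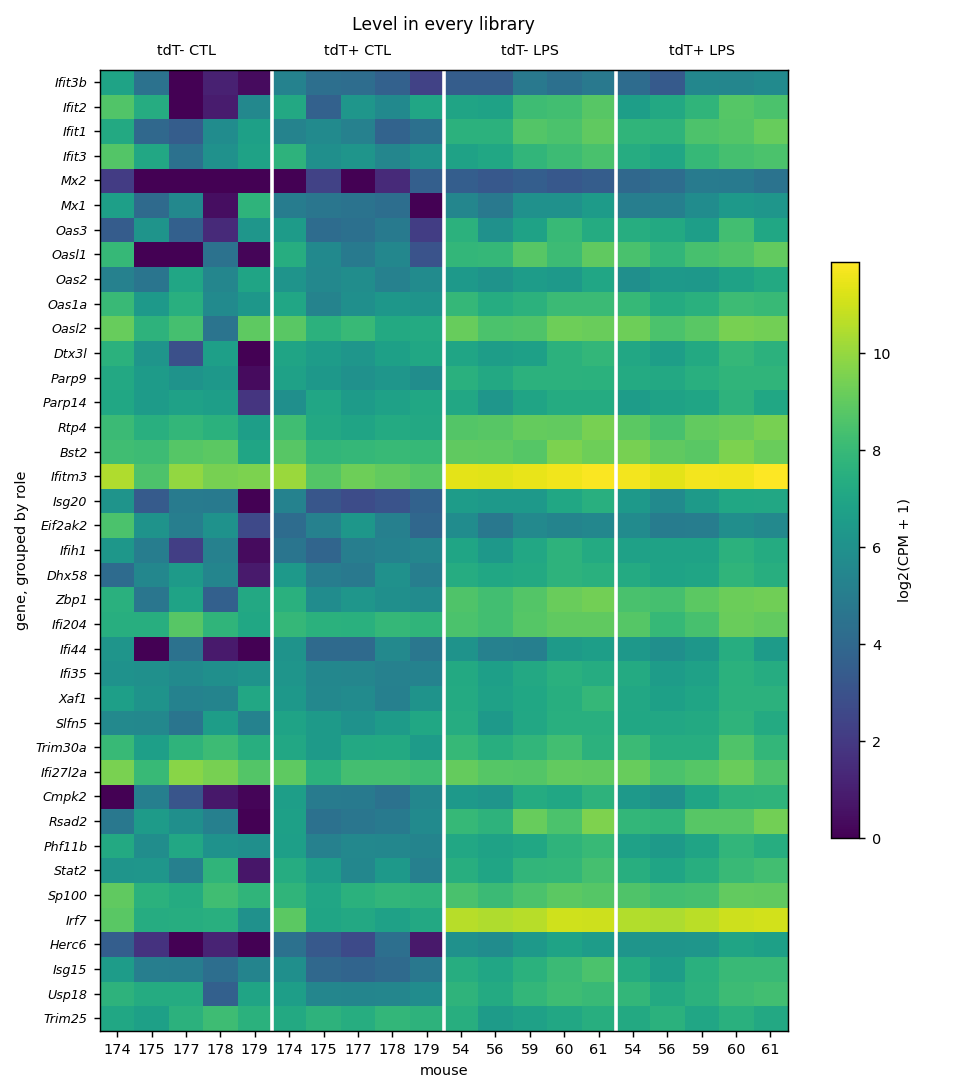
Level of each of the 39 genes (rows, grouped by role) in each of the 20 libraries (columns, by group and mouse), as log2(CPM + 1) in colour. The LPS blocks are brighter and more even than the CTL blocks, and dark cells, which are genes at or near 0 counts, lie mostly in the tdT- CTL block and there most often in mouse 179.

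In tdT- dCAMs, LPS raised 12 of the 39 genes and lowered none. The 12 are Irf7, the transcription factor that amplifies interferon production, Ifitm3 and Rtp4 of the membrane group, Isg15 and its ligase Herc6, the RNA binding Ifit1, the nucleic acid sensors Zbp1 and Dhx58, the neighbours Rsad2 and Cmpk2, and Ifi35 and Slfn5. Called means here a Benjamini-Hochberg adjusted p under 0.05 in the edgeR quasi-likelihood fit over all tested genes together with an absolute log2 fold change over 1. By that rule 30.8% of the 39 genes were called, against 11.5% of all 16632 genes (7.20% higher and 4.27% lower), and against 14.3% of the 5823 genes of mean log2 CPM 4 or more (5.75% higher). The log2 fold change was above 0 for 34 genes and below 0 for 5, with a median of 1.25 where the median over all tested genes was 0.02.

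Irf7 (chr7:141262706-141266481, minus strand, GRCm38) was at 463, 163, 171, 178 and 64.1 CPM in tdT- CTL libraries and at 1552, 1404, 1581, 2064 and 2029 CPM after LPS. Every LPS library stood above the highest CTL library, that of mouse 174, by a wide margin (log2 fold change 3.05, SE 0.44, adjusted p = 6.5e-05, edgeR). Ifitm3 (chr7:141009586-141010770, minus strand), which keeps viruses from fusing with endosomal membranes, was at 1399.7, 375, 979.7, 695 and 746 CPM in CTL and at 2676, 2589, 2876, 3185 and 3615 CPM after LPS. The groups did not overlap, and the CTL libraries spread more widely than the LPS libraries (log2 fold change 1.83, SE 0.28, adjusted p = 1.2e-04, edgeR). Rtp4 (chr16:23520291-23614222, plus strand), a chaperone of membrane receptors, was at 274, 179.7, 233, 190.5 and 98.8 CPM in CTL and at 421, 444, 544, 523 and 688 CPM after LPS, again without overlap (log2 fold change 1.43, SE 0.28, adjusted p = 0.00169, edgeR). Isg15 (chr4:156199424-156200818, minus strand), the ubiquitin-like protein that is joined to other proteins in infected cells, was at 92.6, 33.3, 32.2, 18.9 and 40.6 CPM in CTL and at 170.2, 130.5, 192, 275 and 362 CPM after LPS. Mouse 174 was the highest CTL library and mouse 56 the lowest LPS library, and the groups did not overlap (log2 fold change 2.38, SE 0.48, adjusted p = 0.00208, edgeR).

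The other 8 genes called in tdT- dCAMs had log2 fold changes from 1.28 (Ifi35) to 4.87 (Herc6). Herc6, the main ligase for Isg15 in mice, was nearly silent in tdT- CTL libraries, where it had 0 to 71 counts, and reached 83.5 ± 25.1 CPM after LPS (SD, n = 5). Cmpk2, a mitochondrial nucleotide kinase, had 0 to 313 counts in tdT- CTL libraries and 130.4 ± 53.1 CPM after LPS. Rsad2 (viperin), which makes a nucleotide that stops viral polymerases and lies beside Cmpk2 on chromosome 12, went from 42.2 ± 34.1 to 433 ± 237 CPM. Libraries of LPS and CTL did not overlap for 14 of the 39 genes in tdT- dCAMs, all higher after LPS, where 12.6% of all tested genes did not overlap (9.32% higher and 3.31% lower). The count depended on the fit. With only the 10 tdT- libraries fitted 6 genes passed, where 5.37% of all genes did, and in limma-voom with quality weights 4 passed (10.3% of the 39, against 11.5% of all genes), so that the 39 genes were not called more often than other genes there. In limma-voom with mouse as a replicate block 23 passed, where 27.2% of all genes did. Irf7 was called under all 21 alternatives tried, and the call of Dhx58 (adjusted p = 0.0326, edgeR) was held under 12 of 21.

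**Figure D2:**
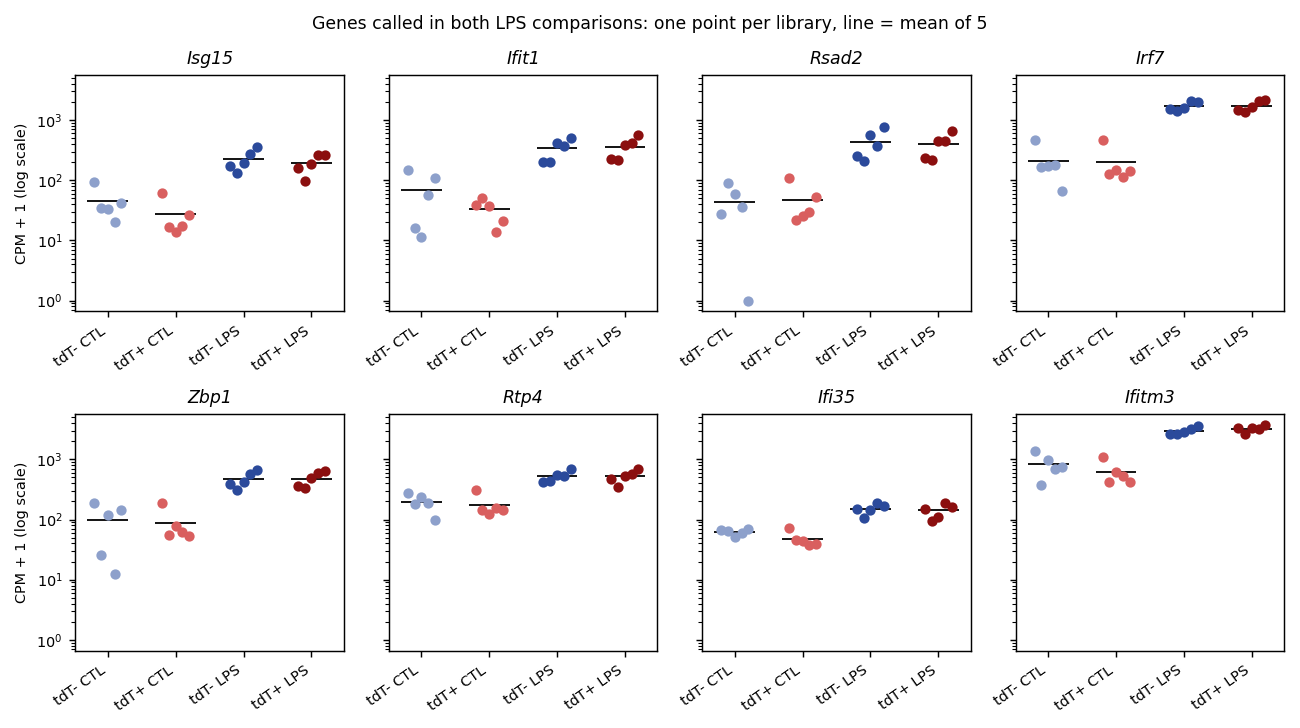
CPM + 1 on a log axis for the 8 genes called in both LPS comparisons, with 1 point per library and a line at the mean of the 5 libraries of each group. For all 8 genes the LPS libraries of a population lie above its CTL libraries.

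In tdT+ dCAMs, LPS raised 15 of the 39 genes and again lowered none. Beside 8 genes shared with tdT- dCAMs, these were Oas1a, which makes the oligoadenylates that activate RNase L, Usp18, which removes Isg15 from proteins and damps receptor signalling, the tetherin gene Bst2, the nuclear body gene Sp100, and Xaf1, Trim30a and Phf11b. The share called was 38.5%, against 5.89% of all tested genes (3.37% higher and 2.52% lower) and 10.8% of genes of mean log2 CPM 4 or more (5.19% higher). The log2 fold change was above 0 for 38 genes, with Trim25 (-0.26) as the exception, and the median was 1.57 against 0.01 over all tested genes.

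Ifitm3 was at 1078, 420.0, 605, 522 and 427 CPM in tdT+ CTL libraries and at 3263, 2675, 3296, 3165 and 3782 CPM after LPS. The lowest LPS library, that of mouse 56, was well above the highest CTL library, that of mouse 174 (log2 fold change 2.41, SE 0.28, adjusted p = 5.6e-06, edgeR). Irf7 was at 473, 124, 144, 111 and 142 CPM in CTL and at 1451, 1369, 1636, 2041 and 2124 CPM after LPS (log2 fold change 3.12, SE 0.44, adjusted p = 5.8e-05, edgeR). As in the tdT- libraries, mouse 174 was far above the other CTL mice and still below all LPS mice. Isg15 was at 59.7, 15.4, 13.0, 16.5 and 25.8 CPM in CTL and at 159.7, 97.2, 187, 264 and 266 CPM after LPS, without overlap (log2 fold change 2.90, SE 0.49, adjusted p = 4.5e-04, edgeR). Ifit1 (chr19:34640871-34650009, plus strand), which binds viral RNA that lacks the cap marks of the host, was at 38.5, 50.5, 36.7, 12.7 and 20.2 CPM in CTL and at 221, 213, 380.4, 416 and 553 CPM after LPS. Its LPS libraries were far above any CTL library, with mice 54 and 56 as the lowest (log2 fold change 3.49, SE 0.61, adjusted p = 5.8e-04, edgeR).

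The remaining 11 genes called in tdT+ dCAMs had log2 fold changes from 1.01 (Trim30a) to 3.10 (Rsad2). Oas1a went from 75.7 ± 34.7 to 225 ± 51.0 CPM, Usp18 from 55.9 ± 24.5 to 234 ± 65.4 CPM and Bst2 from 283 ± 92.5 to 592 ± 122 CPM (SD, n = 5 each). LPS and CTL libraries did not overlap for 25 genes, all higher, where 17.8% of all tested genes did not overlap (10.6% higher and 7.19% lower). The count of 15 fell to 8 without mouse 60, to 9 without mouse 175 and to 9 without mouse 61. The share of all genes called in these fits is not given here, so the drop cannot be set against that of other genes. Of the calls, Rsad2, Xaf1, Bst2, Trim30a, Sp100 and Phf11b were lost in all 3 of these fits, and Isg15, Ifit1, Irf7, Usp18, Zbp1, Rtp4 and Ifi35 were called under all 21 alternatives.

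**Figure D3:**
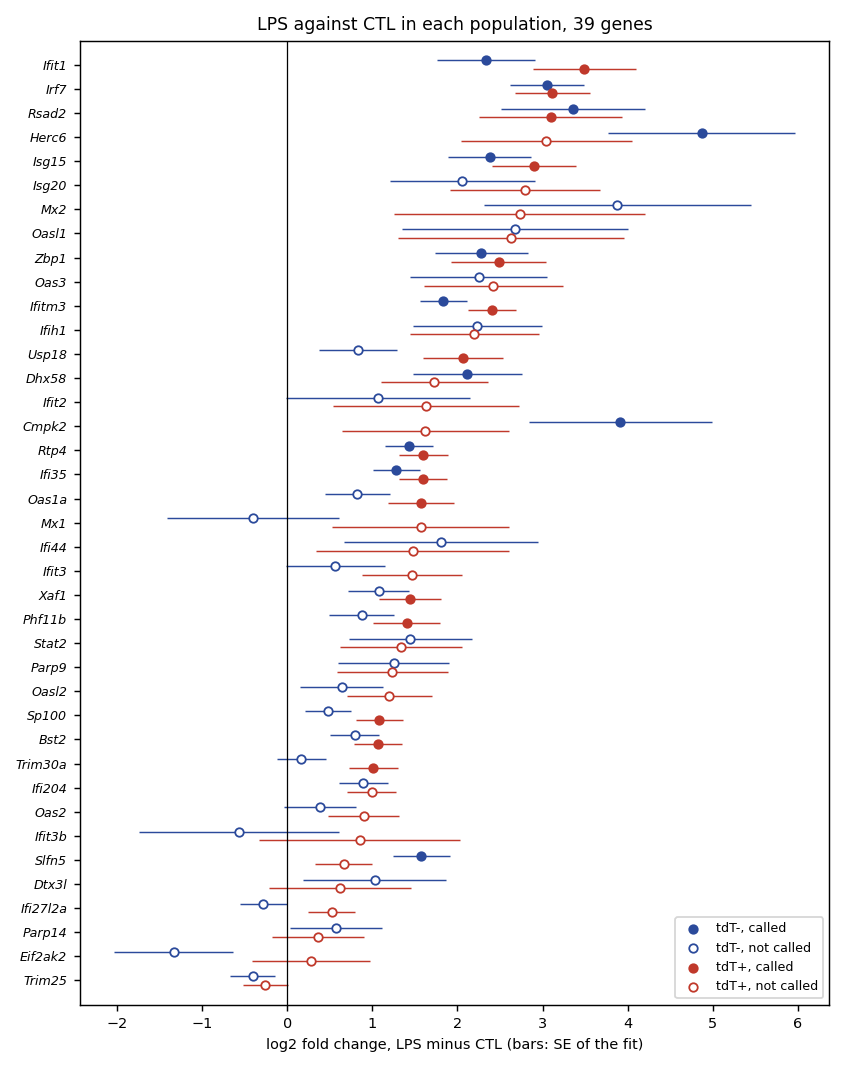
Log2 fold change of LPS against CTL for each of the 39 genes in tdT- (blue) and tdT+ (red) dCAMs, with bars of 1 SE of the edgeR fit and filled points for called genes. Points lie to the right of 0 for 34 genes in tdT- and 38 genes in tdT+ dCAMs, and genes such as Oasl1 and Mx2 have large fold changes with wide bars.

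By role, the membrane group was called in full in tdT+ dCAMs. Ifitm3 and Rtp4 were called in both populations, and Bst2 was called in tdT+ (log2 fold change 1.06) and stood at 0.79 in tdT- dCAMs, with adjusted p = 0.0737 in edgeR. Within the Isg15 system of 4 genes, Isg15 was called in both populations, Herc6 in tdT- and Usp18 in tdT+ dCAMs. Herc6 also stood at a log2 fold change of 3.05 in tdT+ dCAMs (adjusted p = 0.0821, edgeR), without overlap of libraries. Usp18 stood at 0.83 in tdT- dCAMs (adjusted p = 0.225, edgeR). Trim25, a ligase that acts with the RNA sensor RIG-I, was at 183 ± 70.8 and 138 ± 36.7 CPM in tdT- and at 192 ± 33.7 and 160.3 ± 28.1 CPM in tdT+ CTL and LPS libraries, and was called in neither. Of the transcription factors and regulators, Irf7 was called in both populations, Sp100 and Phf11b in tdT+ alone and Stat2 in neither (log2 fold change 1.45 and 1.34).

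Of the 4 IFIT genes, 1 was called. Ifit1 rose in both populations, whereas Ifit2, Ifit3 and Ifit3b had log2 fold changes of 1.06, 0.56 and -0.57 in tdT- and of 1.63, 1.47 and 0.85 in tdT+ dCAMs and passed in neither. In tdT- CTL libraries Ifit2 was at 401, 163, 0, 0.903 and 45.9 CPM, so that mouse 174 reached the level of the LPS libraries while mice 177 and 178 were near 0. Ifit3 was at 411, 138, 20.4, 64.2 and 115 CPM in the same libraries and at 113, 133, 224, 279.9 and 358 CPM after LPS. CTL and LPS libraries overlapped for all 3 of these genes in both populations. The split of reads between Ifit3 and Ifit3b is uncertain, since 51.2% of the 50-base windows of Ifit3 and 45.0% of those of Ifit3b also occur in another gene.

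Among the 5 OAS genes only Oas1a passed, in tdT+ dCAMs, and it shares 57.6% of its 50-base windows with other genes, chiefly Oas1g. Oas3 had log2 fold changes of 2.25 (SE 0.81) and 2.42 (SE 0.82), and Oasl1, which represses translation of Irf7, had 2.68 (SE 1.33) and 2.63 (SE 1.33). The tdT- CTL libraries of Oasl1 ran from 0 in mice 175 and 177 to 246 CPM in mouse 174, which lay inside the LPS range of 235 to 507 CPM. Of the nucleic acid sensors and effectors, Zbp1, a sensor of left-handed nucleic acids, rose from 96.7 ± 76.1 to 470.1 ± 143 CPM in tdT- and from 85.4 ± 55.8 to 478 ± 132 CPM in tdT+ dCAMs. Ifih1 (MDA5) had log2 fold changes of 2.23 and 2.2 with adjusted p of 0.0575 and 0.0988 in edgeR, although its LPS libraries lay above its CTL libraries in both populations. Ifi204, a DNA sensor of the PYHIN family, passed the p threshold in both (adjusted p = 0.0473 and 0.0423, edgeR) and missed the fold threshold with 0.89 and 0.99. Eif2ak2, the kinase PKR, stood at -1.34 (SE 0.70) in tdT- dCAMs, where mouse 174 was at 362 CPM and the other CTL mice at 5.23 to 68.8 CPM, and at 0.28 (SE 0.69) in tdT+ dCAMs.

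The MX genes and the Parp9 group were called in neither population. Mx1, a GTPase that traps viral nucleocapsids, was at 104, 16.3, 45.5, 0.339 and 213 CPM in tdT- CTL and at 42.2, 26.8, 64.2, 62.9 and 90.0 CPM in tdT- LPS libraries, so that mouse 179 was the highest of all tdT- libraries. In tdT+ CTL libraries the same mouse had 0 counts of Mx1, and the other 4 CTL mice were at 18.3 to 30.3 CPM. Mx2, annotated as a polymorphic pseudogene in GENCODE M21, was the least abundant of the 39 genes, with counts in 1 of 5 tdT- CTL and 3 of 5 tdT+ CTL libraries and in all LPS libraries (9.76 ± 1.01 CPM in tdT- and 22.5 ± 6.18 CPM in tdT+). Parp9 and its partner Dtx3l had log2 fold changes of 1.25 and 1.03 in tdT- and 1.23 and 0.62 in tdT+ dCAMs.

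Of the 20 genes called in neither population, the most abundant by mean CPM were Ifi27l2a and Oasl2. Ifi27l2a (chr12:103442167-103443680, minus strand), a small hydrophobic protein, was at 730.3, 257, 866, 687 and 417 CPM in tdT- CTL and at 544, 436, 412, 520.1 and 512 CPM in tdT- LPS libraries. In tdT+ dCAMs it was at 494, 196, 321, 317 and 279 CPM in CTL and at 562, 369.7, 429, 576 and 374 CPM after LPS. The groups overlapped in both populations (log2 fold change -0.29, SE 0.28, adjusted p = 0.518 in tdT-; log2 fold change 0.52, SE 0.28, adjusted p = 0.317 in tdT+, edgeR). Oasl2 (chr5:114896936-114912234, plus strand), an OAS-like protein, was at 553, 207, 329, 22.8 and 488 CPM in tdT- CTL and at 556, 370.3, 391, 605 and 566 CPM in tdT- LPS libraries. Its tdT+ values were 458, 199, 259, 147 and 151 CPM in CTL and 607, 364, 456, 708 and 651 CPM after LPS. Mouse 178 was far below the other tdT- libraries, and CTL mouse 174 lay inside the LPS range in both populations (log2 fold change 0.64, SE 0.49, adjusted p = 0.402 in tdT-; log2 fold change 1.20, SE 0.50, adjusted p = 0.18 in tdT+, edgeR). Per kb of merged exons, Ifitm3, Ifi27l2a and Bst2 were the 3 genes with the highest mean level in all groups. Ifi27l2a led in tdT- CTL libraries with 1278 CPM per kb against 1237 for Ifitm3, a difference smaller than their spread over libraries, and Ifitm3 led after LPS with 4407 CPM per kb in tdT- and 4773 CPM per kb in tdT+ libraries.

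None of the 39 genes had an LPS effect that differed between the populations by the test of the difference itself, where 1.26% of all tested genes were called (0.0902% higher and 1.17% lower). In edgeR 0 of the 39 reached an unadjusted p under 0.05, against 13.1% of all tested genes. DESeq2 and limma-voom also called 0. Of all genes, DESeq2 called 4.47%, limma-voom without a replicate block 3.39% and limma-voom with quality weights 1.32%. The differences (tdT+ minus tdT-) were above 0 for 26 genes and below 0 for 13, with a median of 0.27 on the log2 scale. The lowest adjusted p, 0.383 in edgeR, was that of Trim30a, a ligase that limits TLR signalling, with a difference of 0.85 and a 95% interval of -0.00 to 1.70. For Cmpk2, called in tdT- alone, the difference was -2.29 with an interval of -5.14 to 0.56, and for Usp18, called in tdT+ alone, it was 1.23 with -0.11 to 2.58. The intervals lay within 1 on either side of 0 for 3 of the 39 genes, so that differences of up to that size could be bounded for few of them. Without mouse 174, 1 gene was called: Mx2 stood lower with adjusted p = 0.0472 in edgeR, in a fit in which its tdT- CTL libraries were all at 0 counts.

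The question of the second pair of comparisons is whether tdT+ and tdT- dCAMs of the same mice differ. In CTL mice 0 of the 39 genes were called, where 4.28% of all tested genes were called (3.01% higher and 1.27% lower in tdT+). Unadjusted p was under 0.05 for 6 of the 39 (Ifi27l2a, Slfn5, Usp18, Trim30a, Cmpk2 and Eif2ak2), against 23.5% of all tested genes. The log2 fold change of tdT+ against tdT- was above 0 for 14 genes and below 0 for 25, with a median of -0.19 and a range from -2.0 (Mx1) to 2.37 (Cmpk2). Ifi27l2a was lower in the tdT+ library in 5 of 5 mice (log2 fold change -0.88, SE 0.28, adjusted p = 0.0749, edgeR). Slfn5, a Schlafen family protein, was higher in the tdT+ library in 4 of 5 mice (log2 fold change 0.98, SE 0.34, adjusted p = 0.0975, edgeR). In all, 4 genes (Isg15, Trim30a, Ifi27l2a and Phf11b) were lower in tdT+ in all 5 CTL mice and 1 (Herc6) was higher in all 5, where 9.46% of all tested genes had the same sign in 5 mice and 3.61% were lower in all 5.

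The CTL result moved with the tool and with single mice. DESeq2 called 1 gene, Slfn5 higher in tdT+ (log2 fold change 1.03, adjusted p = 0.0139), where it called 9.88% of all genes. Limma-voom called Cmpk2 and Ifi44 higher in tdT+, both without mouse as a replicate block (12.4% of all genes called) and with it (13.5%). Limma-voom with quality weights called 0 of the 39 (2.22% of all genes), and edgeR with mouse as a term called 0 (3.25%). Leaving out mouse 174 gave a call for Mx2, leaving out mouse 175 a call for Cmpk2, and leaving out mouse 178 calls for Slfn5 (higher in tdT+) and Usp18 (lower in tdT+), where 4.69%, 8.22% and 4.58% of all genes were called.

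After LPS the levels of tdT+ and tdT- dCAMs lay close together. No gene of the 39 was called in edgeR, where 0.0301% of all tested genes were called. None reached an unadjusted p under 0.05 in edgeR, where 5.41% of all tested genes had such a p. DESeq2, limma-voom and edgeR with mouse as a term also called 0. Of all genes, DESeq2 called 0.361%, limma-voom without a replicate block 0.12% and limma-voom with quality weights 0.824%. Log2 fold changes ran from -0.26 (Phf11b) to 1.20 (Mx2), with a median of 0.05. Irf7 averaged 1726 ± 301 CPM in tdT- and 1724 ± 342 CPM in tdT+ libraries (95% interval of the log2 fold change -0.85 to 0.84), and Rtp4 524 ± 105 and 524 ± 132 CPM (-0.58 to 0.58). For 15 of the 39 genes the interval lay within 1 on either side of 0. Isg15 was lower in the tdT+ library in 5 of 5 LPS mice, by a log2 fold change of -0.21 with an interval of -1.17 to 0.74. It was the only gene of the 39 lower in tdT+ in all 5 LPS mice, where 4.71% of all tested genes were, and Mx2 was the only gene of the 39 higher in all 5, where 9.90% of all tested genes had the same sign in 5 mice.

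**Figure D4:**
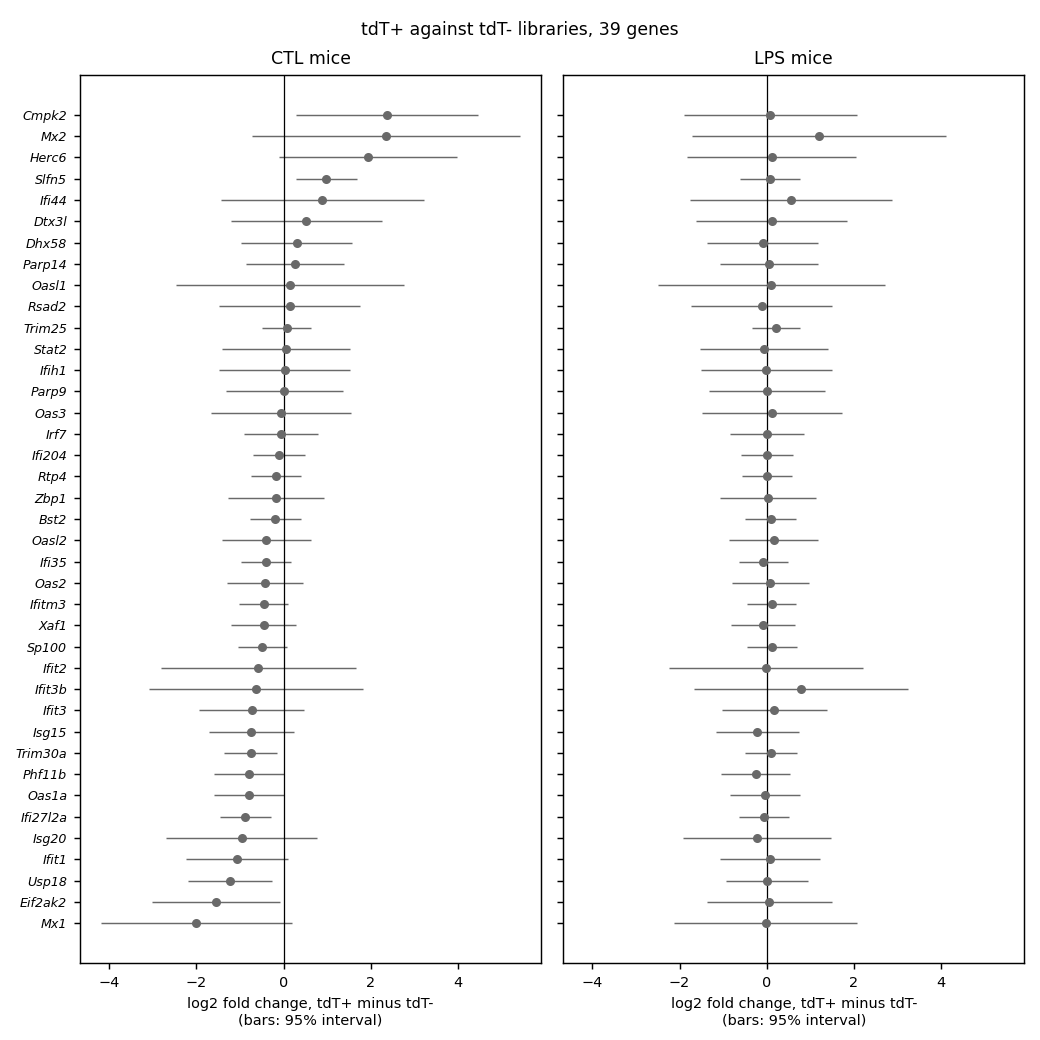
Log2 fold change of tdT+ against tdT- libraries for the 39 genes in CTL mice (left) and LPS mice (right), with 95% intervals of the edgeR fit. CTL values run from -2.0 to 2.37 and LPS values from -0.26 to 1.20, and no gene was called in either.

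Measured within each mouse, the libraries of a pair lay closer after LPS. The median absolute log2 difference between the tdT+ and tdT- library over the 39 genes was 0.554 to 1.45 in CTL mice and 0.156 to 0.211 in LPS mice, without overlap. Genes within 0.5 log2 units of each other numbered 3 to 16 of 39 in CTL mice and 31 to 36 in LPS mice. Over the 5823 more abundant genes (mean log2 CPM 4 or more) the medians were 0.557 to 1.31 in CTL and 0.214 to 0.262 in LPS mice. CTL libraries were also less deep and, in the tdT- group, had fewer genes detected, and the part of depth in the distance was not tested.

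Individual mice differed in the level of the whole set. CTL mouse 174 had the highest level of its group for 24 of the 39 genes in tdT- and for 29 in tdT+ libraries, where 23.3% and 27.4% of the 5823 more abundant genes were highest in that mouse. For 17 genes it was highest in both libraries, where 6.94% of those genes were. Its total counts were the lowest of the CTL group in both populations. LPS mouse 56 had the lowest level for 32 genes in tdT- and 28 in tdT+ libraries, where 18.9% and 22.1% of the more abundant genes were lowest there. Mice 60 and 61 were highest in both libraries for 11 and 14 genes, where 7.90% and 9.60% of the more abundant genes were. With mouse 174 left out, 11 of the 12 calls in tdT- dCAMs and all 15 in tdT+ dCAMs were held.

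**Figure D5:**
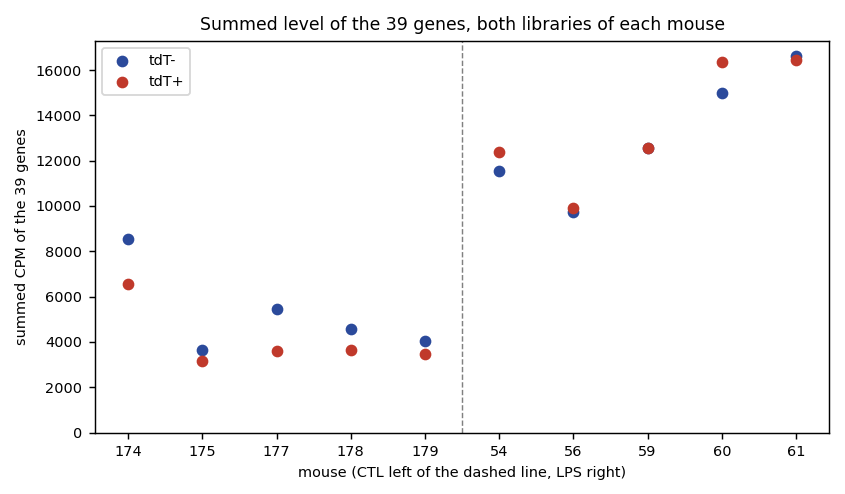
Summed CPM of the 39 genes in the tdT- (blue) and tdT+ (red) library of each mouse, with CTL mice left and LPS mice right of the dashed line. Mouse 174 is the highest CTL mouse and mouse 56 the lowest LPS mouse in both populations, and the points of a mouse lie close together after LPS.

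The 2 LPS mice with titles starting with F (54 and 56) were both below the 3 with M (59, 60 and 61) for 20 of the 39 genes in tdT- and for 19 in tdT+ libraries, and above them for 0. Over the more abundant genes 11.2% in tdT- and 11.1% in tdT+ libraries were below, and 9.63% and 9.43% were above. Summed levels were 9748 to 11539 CPM for F and 12570 to 16620 CPM for M in tdT- and 9927 to 12382 CPM against 12541 to 16426 CPM in tdT+ libraries. In CTL mice, 3 genes in tdT- (7.69%) and 1 in tdT+ libraries (2.56%) were lower in all F mice. Over the more abundant genes these shares were 13.7% and 11.6%. In all F mice 5 genes (12.8%) and 2 genes (5.13%) were higher, against 7.40% and 9.34% of the more abundant genes. With this letter as a term, edgeR called 12 genes in tdT- and 12 in tdT+ dCAMs, against 10.5% and 5.41% of all genes. Rsad2, Trim30a and Phf11b were lost in tdT+ dCAMs.

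Over the 39 genes the median spread was also wider in CTL than in LPS libraries. The median coefficient of variation of the 39 genes was 72.2% in tdT- and 52.2% in tdT+ libraries of CTL mice, and 27.0% and 28.1% in those of LPS mice. Over the more abundant genes it was 73.5%, 29.5%, 18.4% and 16.6%. In tdT- CTL libraries 22 of 195 values of the 39 genes were at or under 3 counts (11.3%, against 8.37% over the more abundant genes), and 11 of the 22 came from mouse 179. In tdT+ CTL libraries 3 values were at or under 3 counts, and after LPS none was.

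The interferons themselves were almost undetected. Of 21 ligand genes in the table, 2 passed the filter on low counts and none was called in either LPS comparison. Ifnb1, the interferon-beta gene that TLR4 signalling induces, had 16 counts in 1 tdT+ CTL library and 0 in the other 19 libraries, and Ifng had 0 in all 20. A count of 0 bounds the level only at about 3 counts per library, and such a bound covers counting error only.

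Among 16 tested receptor and signalling genes, 1 was called higher and 1 lower in each LPS comparison. The shares called over all tested genes were 11.5% in tdT- and 5.89% in tdT+ dCAMs. Socs3, an inhibitor of cytokine signalling, rose from 379 ± 149 to 1377 ± 196 CPM in tdT- (log2 fold change 1.86, SE 0.27, adjusted p = 7.0e-05, edgeR) and from 276 ± 128 to 1752 ± 275 CPM in tdT+ dCAMs (log2 fold change 2.66, SE 0.28, adjusted p = 1.1e-06, edgeR). Irf1 fell, with log2 fold changes of -1.07 and -1.35. Neither receptor chain was called, with log2 fold changes of 0.18 and -0.58 for Ifnar1 and of 0.39 and 0.16 for Ifnar2. Irf9, which binds the ISRE together with Stat2, stood at 0.17 and 0.29 and was called in neither population.

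Among 15 tested genes of sensing and interferon induction, LPS raised 3 and lowered 1 in tdT- dCAMs and raised 2 and lowered 1 in tdT+ dCAMs. Over all tested genes, 11.5% were called in tdT- and 5.89% in tdT+ dCAMs. Cd14, the LPS co-receptor, rose from 1553 ± 394 to 5682 ± 877 CPM in tdT- (log2 fold change 1.87, SE 0.20, adjusted p = 1.3e-06, edgeR) and had a log2 fold change of 1.98 in tdT+ dCAMs. Ikbke, a kinase that activates IRF3 and IRF7, was at 4.02 ± 8.86 and 328 ± 71.8 CPM in tdT- and at 0.739 ± 1.49 and 412 ± 87.4 CPM in tdT+ CTL and LPS libraries. Sting1, the adaptor of DNA sensing, fell by 1.94 and 1.39 on the log2 scale. Tlr4 was called in tdT- dCAMs (log2 fold change 1.56, SE 0.51, adjusted p = 0.0495, edgeR) and stood at 0.08 (SE 0.50) in tdT+ dCAMs, and in CTL mice it was higher in tdT+ than in tdT- dCAMs (log2 fold change 1.91, SE 0.52, adjusted p = 0.0363, edgeR). The difference of its LPS effects was not called (adjusted p = 0.383, edgeR). Irf3 was called in neither (-0.74 and -0.26).

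A further list of 48 tested interferon stimulated genes outside the 39 gave 11 called higher in tdT- and 10 in tdT+ dCAMs, with none lower. Of all tested genes, 7.20% were called higher in tdT- and 3.37% in tdT+ dCAMs. The median log2 fold change was 0.93 in tdT- and 1.0 in tdT+ dCAMs, or 0.88 and 0.91 with genes silent in a whole group set at their bound. Lgals3bp, a secreted glycoprotein, rose from 371 ± 156 to 1904 ± 180.0 CPM in tdT- and from 456 ± 141 to 2200.3 ± 176 CPM in tdT+ dCAMs. The largest levels after LPS in this list among the named genes were those of Ccl5, a chemokine for T cells, at 4829 ± 1225 CPM in tdT- and 3696 ± 915 CPM in tdT+ libraries against 65.5 ± 75.1 and 7.79 ± 2.79 CPM in CTL. Ly6a (Sca-1) rose with log2 fold changes of 5.01 and 4.93, and Ms4a4c with 2.08 and 3.61. Tnfsf10, the death ligand TRAIL, had at most 3 counts in any tdT- CTL library and 42.3 ± 24.2 CPM in tdT- LPS libraries (adjusted p = 6.3e-05, edgeR). In tdT+ dCAMs it was at 15.4 ± 13.4 CPM in CTL and 39.9 ± 25.7 CPM after LPS, and it was called in the difference of LPS effects (adjusted p = 0.0109, edgeR).

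Close copies of the 39 genes are listed apart, since reads may be shared among them. Of 31 tested, LPS raised 13 and lowered 3 in tdT- dCAMs and raised 13 and lowered 1 in tdT+ dCAMs. Over all tested genes 7.20% were called higher and 4.27% lower in tdT-, and 3.37% and 2.52% in tdT+ dCAMs. Ifitm2, next of kin to Ifitm3, rose from 157 ± 19.9 to 433 ± 17.2 CPM in tdT- (log2 fold change 1.47, SE 0.16, adjusted p = 2.9e-06, edgeR) and from 145 ± 26.6 to 462 ± 38.8 CPM in tdT+ dCAMs. Of the PYHIN relatives of Ifi204, Ifi213 had log2 fold changes of 2.36 and 2.31 and Ifi209 of 2.16 and 2.92. Of the Schlafen relatives of Slfn5, Slfn2 had 1.27 and 1.41, and Slfn4 had 0 counts in all 5 tdT- CTL libraries and 143 ± 66.7 CPM after LPS.

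Reads of some of the 39 genes could not be assigned with certainty. Of them, 6 share over 20% of their 50-base windows with another gene (Ifit3, Ifit3b, Oas1a, Ifi204, Herc6 and Phf11b), and 13 overlap exons of another gene. The library kit does not mark strand. Irf7, Usp18, Dhx58, Ifi35, Slfn5, Oasl1, Eif2ak2, Parp9 and Dtx3l overlap exons of a gene on the opposite strand. Reads in the overlapping parts cannot be told apart from those of the other gene.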

How the data were processed

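RNA of sorted dCAMs was sequenced by the authors from 10 mice, with a tdT+ and a tdT- library each, after SMARTer Ultra Low Input v4 amplification and Nextera XT library preparation without molecular identifiers or strand marks. The deposited values are raw whole-number counts per gene symbol, which the authors made with bcl2fastq 2.20, STAR 2.7.11a and featureCounts 2.0.6 per the processing notes, which also list DESeq2 1.46.0. The methods leave 2 genome builds open, so that coordinates (GRCm38, GENCODE M21 and RefSeq) serve only to locate a gene. Columns of the table were matched to samples by name, with 0 columns left over.

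Groups came from the labels. Genes with under 10 counts in sum were removed, counts were TMM scaled, and edgeR 4.0.16 (quasi-likelihood, R 4.3.3) was fitted to all 20 libraries, with 1 mean for each of 4 groups and 5 contrasts. The common biological coefficient of variation was 1.13. A gene was called at a Benjamini-Hochberg adjusted p under 0.05 over 16632 genes and an absolute log2 fold change over 1. Intervals are 95% intervals of the fit, and a value of 3 counts or fewer was taken as the floor of a library. Levels are CPM after TMM, and CPM per kb used merged exons. The scripts were tested on simulated data.

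The members and lists were chosen with earlier results of these data known. Genes were named by rule: per contrast the called members with the 4 smallest p in each direction, the 2 most abundant members called in neither LPS comparison, the 3 called genes of smallest p per further list, and 8 pathway genes fixed by name (Ifnb1, Ifng, Ifnar1, Ifnar2, Irf9, Tlr4, Irf3 and 1 that is not reported here). Other genes named were chosen after their values were seen.

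The tdT+ and tdT- libraries of a mouse are paired by the animal. Across genes, deviations of paired libraries from their group means correlated with r of -0.0046 to 0.0461 in CTL mice and 0.228 to 0.449 in LPS mice. Alternatives covered DESeq2 1.42.0, limma 3.58.1 voom with and without mouse as a block, edgeR with mouse as a term, other filters and scalings, only the libraries compared, the title letter as a term, and each mouse left out in turn.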

Additional observations from a re-analysis of the deposited data

Results flagged for a closer look

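Each of the 39 genes was looked at in each of the 4 groups of 5 libraries for a highest or lowest library whose gap to the next exceeded Dixon's 95% limit, which chance exceeds in about 1 in 20 groups. Of 156 such pairs, 13 were marked, of which 6 were a high value of CTL mouse 174 and 4 a low value of CTL mouse 179.

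In tdT+ CTL libraries, mouse 174 was high for Irf7 (473 CPM), Bst2 (447 CPM), Rtp4 (304 CPM), Phf11b (105 CPM) and Usp18 (98.8 CPM). In tdT- CTL libraries it was high for Mx2 (3.34 CPM, with 0 counts in the other 4 mice). Mouse 179 was low in tdT- CTL libraries for Rsad2 (0.0 CPM), Parp9 (0.262 CPM) and Parp14 (2.62 CPM), and in tdT+ CTL libraries for Mx1 (0.0 CPM). Usp18 was low in the tdT- CTL library of mouse 178 (11.5 CPM), Sp100 was low in the tdT+ CTL library of mouse 175 (131 CPM), and Parp9 was low in the tdT- LPS library of mouse 56 (141 CPM). Total counts of mouse 174 were the lowest of the CTL mice in both populations, and the part of depth in these values was not tested.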

How the results depend on the processing

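The direction of every call among the 39 genes in the LPS comparisons was higher under all alternatives run, while the number of calls moved. In tdT- dCAMs the count of 12 (11.5% of all genes called) went to 4 in limma-voom with quality weights (11.5%), 6 with only the 10 libraries of the comparison (5.37%), 21 in limma-voom without and 23 with mouse as a replicate block (27.2% in both), and 10 to 18 with a mouse left out. In tdT+ dCAMs the count of 15 (5.89%) went to 27 with quality weights (19%), 27 with only the 10 libraries compared (14.2%) and 8 to 19 with a mouse left out. For the LPS comparisons with a mouse left out, shares over all genes are not given, so those ranges have no background. Between the populations in CTL mice the count of 0 went to 1 in DESeq2, 2 in limma-voom without and 2 with mouse as a replicate block, and 0 to 2 with a mouse left out. The difference of LPS effects went from 0 to 1 without mouse 174 and ranged from 0 to 1 over mice left out, and the LPS populations stayed at 0 under all alternatives. The median log2 fold change in tdT- dCAMs, 1.25, went to 2.01 with quality weights, 2.00 in limma-voom without and 2.01 with the block. Ifitm3, called in both populations, was not called in limma-voom without or with the block, with log2 fold changes of 2.00 and 2.82 without it, and was called with quality weights. The cause of these shifts was not tested. Between the limma-voom fits without and with mouse as a replicate block no count moved by over 1.5 times, and edgeR with mouse as a term gave 0 where edgeR without it did. With 5 mice per group and the wide spread of tdT- CTL libraries, differences under about 1 log2 unit could be bounded for few genes.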
